A study of Mus musculus with 8 samples.

Results

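The genes described here are the D-type cyclins Ccnd1, Ccnd2 and Ccnd3, the kinases Cdk4 and Cdk6 that they activate, and the cyclin-dependent kinase inhibitors Cdkn1a, Cdkn1b, Cdkn1c, Cdkn2b and Cdkn2c. They were read from arrays of samples labelled as primary aortic smooth muscle cells, strain C57Bl6, used at passage 3 to 4. For 4 samples the medium, DMEM with 10% FCS (fetal calf serum), held 100 nM jasplakinolide for 24 h. For the 4 control samples it held none. Jasplakinolide, a sponge toxin that enters cells, stabilises actin filaments and favours their assembly. The members were taken by name, with the probe set of highest mean signal where a gene had more than 1, and 9 of the 10 had a probe set annotated with a single symbol, out of 19938 such genes. Cdkn1a, the p53-responsive inhibitor p21, was the exception. Its probe set carries 2 gene symbols, so no value is given for it.

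D-type cyclins are made in response to growth factors and, with CDK4 or CDK6, start the phosphorylation of the retinoblastoma protein, which frees E2F transcription factors to switch on the genes of DNA synthesis. Inhibitors of the INK4 family (Cdkn2a to Cdkn2d) bind CDK4 and CDK6 alone, whereas those of the CIP/KIP family (Cdkn1a to Cdkn1c) bind cyclin-kinase complexes and restrain CDK2 above all. In vascular smooth muscle these genes are known from the change between a contractile and a proliferating state. Much of the control of Cdkn1b and of the D-type cyclins acts on the stability of their proteins, which arrays of RNA do not measure.

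Values are log2 RMA expression levels, with 1 unit for each doubling of signal. The median of an array was 7.30 to 7.39, and no detection calls were used. Jasplakinolide 4 (26.9) and control 2 (26.6) were highest on the first principal component, which held 38.0% of the variance. Control 1 (-24.7) and control 3 (-22.5) lay about as far out at its other end, with the rest between -11.5 and 8.94. Results for the members are also given without jasplakinolide 4 and control 2, a choice made after seeing the data. No fit leaves out control 1 and control 3 together. Of 9 smooth muscle markers 4 lay among the brightest 10% of genes, and 6 rose with jasplakinolide (limma, adjusted p under 0.05). Of 10 endothelial markers 6 lay among the brightest 10%, and their mean level over the list was 10.68 to 10.82 log2 on the jasplakinolide arrays against 10.93 to 10.97 log2 on the control arrays. Among them 1 gene, the guidance receptor gene Robo4, fell (limma; 3 with the replicate number as a block). Of the 10, 9 differences lay below 0, as did 43.6% of all genes, and 6 had an unadjusted p under 0.05 (limma). The part of this shift in the results below was not tested. None of 6 fibroblast and 7 macrophage markers passed (limma; 2 and 3 at an unadjusted p under 0.05, as had 1769 of all 19938 genes), though with the block Dcn and Cd68, 1 of each list, fell. In bulk RNA, fewer cells of a type and less RNA per cell cannot be told apart. The labels do not say whether same-group samples came from separate cultures or animals, so p-values reflect only the differences among these 8 samples, possibly technical ones.

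None of the 9 measured members passed the test in either direction (limma, Benjamini-Hochberg adjusted p under 0.05 over all genes), and none had an unadjusted p under 0.05, which 1769 of the 19938 genes had. Among all genes 0.772% passed, 0.436% higher and 0.336% lower, so a count of 0 among 9 is near this background. The adjusted p of the members ran from 0.733 for Ccnd3 to 0.992 for Cdk6. Their median log2 difference (jasplakinolide minus control) was -0.05, with 7 differences below 0 and 2 above. The median over all genes was 0.01, with 43.6% below 0, and no direction particular to the members is read from these counts. The 95% intervals bound each difference. The lowest bound was that of Cdkn2c, at 0.826-fold of control, and the highest that of Cdkn1c, at 1.21-fold. For the kept probe sets and with all arrays, larger shifts of any 1 of the 9 lay outside its interval. A second probe set of Cdkn1b, given below, was less precise (-0.12 ± 0.15 log2, SE).

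**Figure D1:**
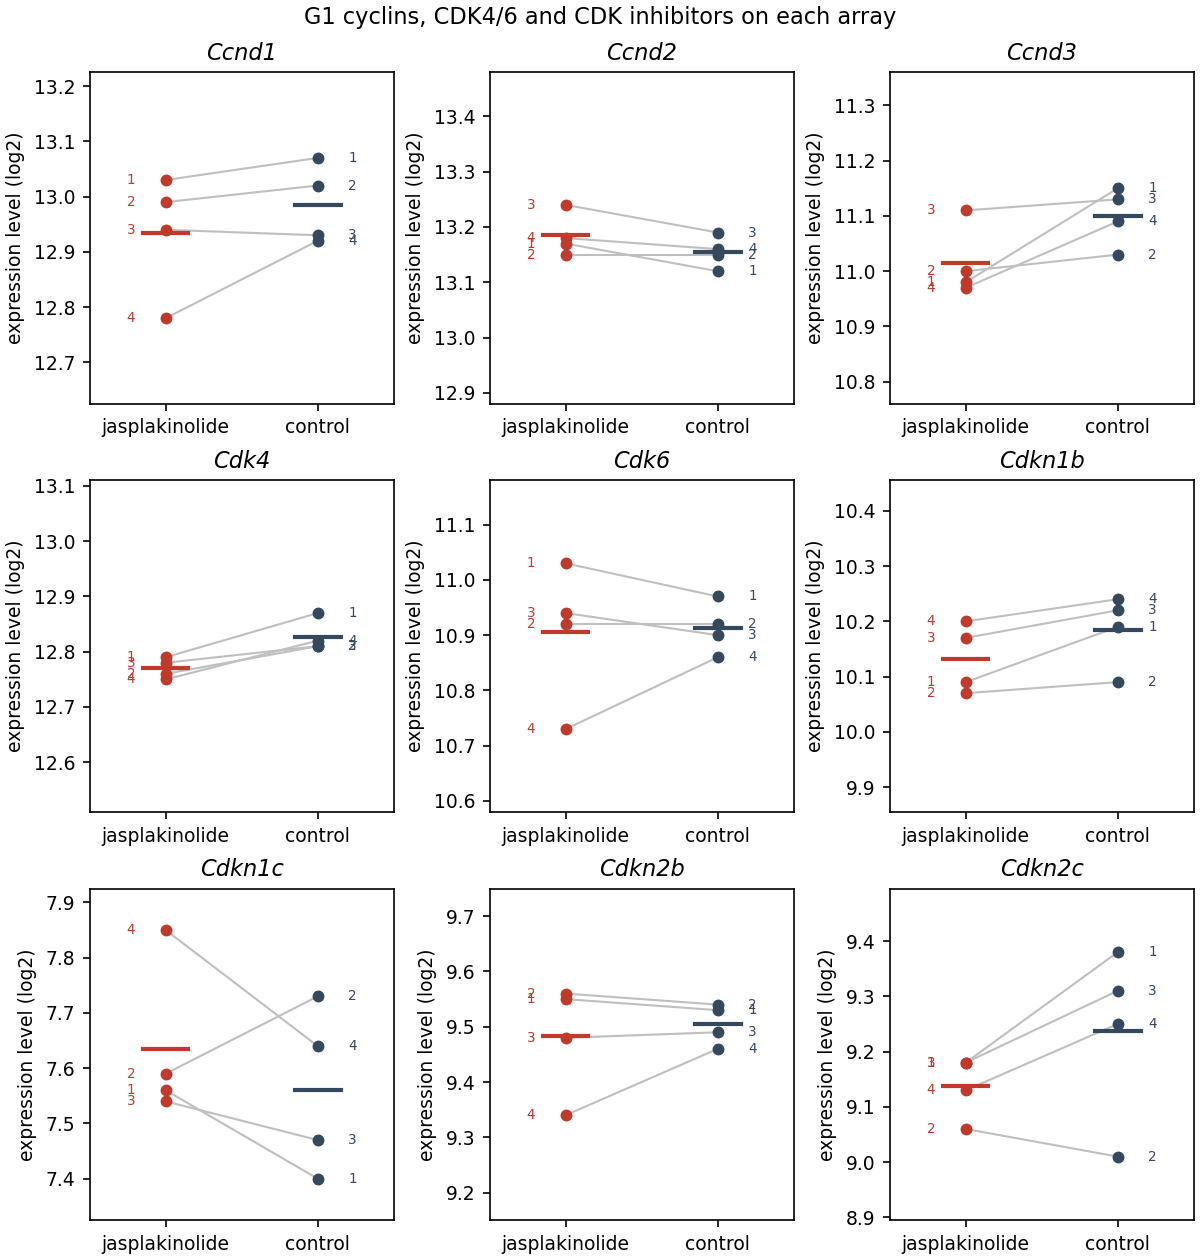
Expression level (log2) of the 9 measured genes on each array, jasplakinolide at the left and control at the right of each panel, with bars for group means and grey lines between arrays of the same replicate number (printed beside the points). Every panel spans the same log2 range. The groups overlap in 8 panels, and in that of Cdk4 the 4 jasplakinolide arrays lie below the 4 control arrays.

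Among the cyclins, Ccnd1 encodes cyclin D1, the D-type cyclin most closely tied to growth factor and adhesion signals. Its level was 13.03, 12.99, 12.94 and 12.78 log2 on jasplakinolide arrays 1 to 4, against 13.07, 13.02, 12.93 and 12.92 log2 on control arrays 1 to 4. The groups overlapped, and the lowest value was that of jasplakinolide 4. The means were 12.93 ± 0.11 log2 with jasplakinolide and 12.98 ± 0.07 log2 in control (SD, n = 4 each). The log2 difference was -0.05 ± 0.06 (SE; limma adjusted p = 0.929), with a 95% interval of 0.874 to 1.07-fold. Without control 2 and jasplakinolide 4 it was 0.01 ± 0.06. It was 0.0040 without jasplakinolide 4 alone and -0.039 without control 2 alone, so that even its sign depended on jasplakinolide 4.

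Ccnd2 encodes cyclin D2. It read 13.17, 13.15, 13.24 and 13.18 log2 on the jasplakinolide arrays against 13.12, 13.15, 13.19 and 13.16 log2 on the control arrays. It was the steadiest of the cyclins across arrays, with SDs of 0.04 and 0.03 log2. All 4 same-numbered pairs were higher with jasplakinolide, by 0.005 to 0.057 log2, but the groups overlapped. The log2 difference was 0.03 ± 0.04 (SE; limma adjusted p = 0.927), with an interval of 0.958 to 1.09-fold.

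Ccnd3 encodes cyclin D3. Its values were 10.98, 11.00, 11.11 and 10.97 log2 with jasplakinolide against 11.15, 11.03, 11.13 and 11.09 log2 in control. On 3 of the jasplakinolide arrays it lay below all control arrays, and jasplakinolide 3 lay among the controls. All 4 pairs were lower with jasplakinolide, by 0.018 to 0.166 log2. The log2 difference, -0.08 ± 0.05 (SE), had the largest moderated t of the members in either direction, yet 17.5% of all genes had a larger one and it did not pass (limma adjusted p = 0.733; 0.873 to 1.02-fold).

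Cdk4 and Cdk6 encode the 2 kinases that D-type cyclins activate. Their promoter windows, 250 bases before to 50 after the annotated start, are shown because Cdk4 was the single member whose groups did not overlap, and because the E-box CACGTG in the human CDK4 promoter is a known binding site of MYC. Both are printed 5′ to 3′ from RefSeq (GRCm38.p6, plus strand), with each E-box in capitals. The windows are chr10:127063285-127063584 for Cdk4 and chr5:3343643-3343942 for Cdk6.
Cdk4: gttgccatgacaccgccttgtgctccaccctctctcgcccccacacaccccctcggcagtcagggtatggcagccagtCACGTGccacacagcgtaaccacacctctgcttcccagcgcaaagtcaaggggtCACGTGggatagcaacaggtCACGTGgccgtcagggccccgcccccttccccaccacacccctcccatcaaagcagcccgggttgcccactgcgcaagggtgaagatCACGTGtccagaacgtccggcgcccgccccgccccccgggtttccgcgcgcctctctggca
Cdk6: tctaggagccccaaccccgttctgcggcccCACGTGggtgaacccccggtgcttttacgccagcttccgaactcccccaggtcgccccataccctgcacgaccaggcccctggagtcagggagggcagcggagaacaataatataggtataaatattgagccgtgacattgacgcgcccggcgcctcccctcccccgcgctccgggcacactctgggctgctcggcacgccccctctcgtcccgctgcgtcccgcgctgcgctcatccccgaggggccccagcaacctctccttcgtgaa
The Cdk4 window holds 4 copies of the E-box, beginning 172, 118, 98 and 11 bases before the start, and the Cdk6 window 1, beginning 220 bases before it. The letters CACGTG read the same on both strands.

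Of 32851 RefSeq promoter windows of this length, 7.15% held at least 1 E-box and 8 held 4 or more. Windows were found for 7 of the 10 members, 10 windows in all, and not for Ccnd1, Ccnd2 and Cdkn1c. Besides Cdk4 and Cdk6, 1 of the 2 windows of Cdkn2c held an E-box. None of the 10 held an E2F site (TTTCCCGC, TTTCGCGC, TTTGCCGC or TTTGGCGC, both strands; 2.26% of all windows) or a CArG box, the element bound by serum response factor (both strands; 1.63% of all windows). The CHR element of mitotic promoters (TTTGAA, both strands; 17.9% of all windows) occurred in 1, that of Cdkn2b. These matches describe the letters of the windows and say nothing of binding in these cells.

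Cdk4 measured 12.79, 12.76, 12.78 and 12.75 log2 on the jasplakinolide arrays, against 12.87, 12.81, 12.81 and 12.82 log2 on the control arrays. Every jasplakinolide array lay below every control array. Such a gap, lower with jasplakinolide, was seen in 3.29% of all genes (6.91% in either direction), and 1 member in 9 had it. The step was small. The means were 12.77 ± 0.02 log2 with jasplakinolide and 12.83 ± 0.03 log2 in control (SD, n = 4 each), a log2 difference of -0.06 ± 0.04 (SE; limma adjusted p = 0.776; 0.902 to 1.02-fold). Limma's standard error draws on the spread of all genes and exceeds that of this tight group alone. Control 1, the highest of its group, left the difference at -0.05 when it was omitted. Myc, the E-box-binding growth regulator, was named here after its value was seen. It averaged 11.44 ± 0.04 log2 with jasplakinolide and 11.48 ± 0.09 log2 in control (SD, n = 4 each), a log2 difference of -0.04 ± 0.05 (SE; limma adjusted p = 0.924).

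Cdk6 read 11.03, 10.92, 10.94 and 10.73 log2 with jasplakinolide against 10.97, 10.92, 10.90 and 10.86 log2 in control. The highest and the lowest of the 8 arrays were both treated ones, jasplakinolide 1 and 4. Its log2 difference was -0.01 ± 0.07 (SE; limma adjusted p = 0.992), the smallest of the members, with an interval of 0.898 to 1.10-fold. It turned to 0.05 ± 0.06 without control 2 and jasplakinolide 4.

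**Figure D2:**
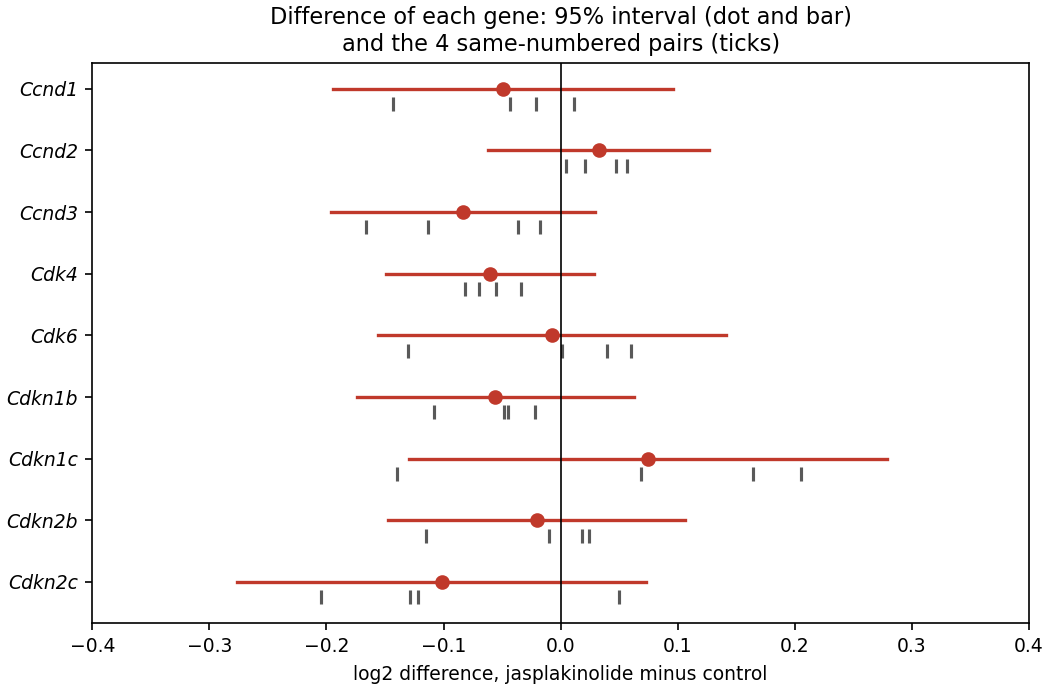
Log2 difference (jasplakinolide minus control) of each measured gene, with dots for the estimate, bars for its 95% interval and ticks for the 4 same-numbered pairs. All 9 intervals include 0, and all 4 ticks lie below 0 for Ccnd3, Cdk4 and Cdkn1b and above 0 for Ccnd2.

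Of the CIP/KIP inhibitors, Cdkn1b encodes p27, which holds cyclin E-CDK2 inactive in resting cells. It gave 10.09, 10.07, 10.17 and 10.20 log2 on the jasplakinolide arrays and 10.19, 10.09, 10.22 and 10.24 log2 on the control arrays. The ranges overlapped, but the replicate numbers kept the same order at the ends in both groups, with number 4 highest and number 2 lowest. Within numbers, all 4 pairs were lower with jasplakinolide, by 0.022 to 0.108 log2. The log2 difference was -0.06 ± 0.05 (SE; limma adjusted p = 0.883; 0.886 to 1.04-fold), and -0.11 ± 0.05 without control 2 and jasplakinolide 4 (adjusted p = 0.481). A second, dimmer probe set of Cdkn1b read 7.75 ± 0.11 log2 with jasplakinolide and 7.88 ± 0.34 log2 in control (SD, n = 4 each), a difference of -0.12 ± 0.15 (SE; limma adjusted p = 0.920).

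Cdkn1c encodes p57, an imprinted inhibitor known from differentiating tissues. Its levels, 7.56, 7.59, 7.54 and 7.85 log2 with jasplakinolide against 7.40, 7.73, 7.47 and 7.64 log2 in control, were close to the array medians. The highest in each group was jasplakinolide 4 and control 2, the 2 arrays highest on the first principal component. The means were 7.64 ± 0.14 log2 with jasplakinolide and 7.56 ± 0.15 log2 in control (SD, n = 4 each). The log2 difference of 0.07 ± 0.09 (SE; limma adjusted p = 0.922; 0.914 to 1.21-fold) shrank to 0.0039 without jasplakinolide 4 and was 0.06 ± 0.07 without both arrays.

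Of the INK4 inhibitors, Cdkn2b encodes p15, known as a target of TGF-beta signalling in epithelial cells. It read 9.55, 9.56, 9.48 and 9.34 log2 with jasplakinolide and 9.53, 9.54, 9.49 and 9.46 log2 in control. Jasplakinolide 4 was the lowest of the 8 arrays, as it was for Ccnd1 and Cdk6, and the other 7 lay within 9.46 to 9.56 log2. The log2 difference was -0.02 ± 0.06 (SE; limma adjusted p = 0.965; 0.903 to 1.08-fold), and 0.04 ± 0.05 without control 2 and jasplakinolide 4.

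Cdkn2c encodes p18. Its values were 9.18, 9.06, 9.18 and 9.13 log2 on the jasplakinolide arrays against 9.38, 9.01, 9.31 and 9.25 log2 on the control arrays. On 3 control arrays it lay above all treated ones, while control 2 was the lowest of the 8. The means were 9.14 ± 0.06 log2 with jasplakinolide and 9.24 ± 0.16 log2 in control (SD, n = 4 each). The log2 difference of -0.10 ± 0.08 (SE; limma adjusted p = 0.819; 0.826 to 1.05-fold) was the lowest of the members with all arrays, and was -0.18 ± 0.06 without control 2 and jasplakinolide 4 (adjusted p = 0.311). It shrank to -0.05 without control 1, where Ccnd3 was lower at -0.07. The remaining INK4 genes did not pass either (limma; 0 of 2 at an unadjusted p under 0.05). Cdkn2a differed by -0.11 ± 0.07 and Cdkn2d by -0.04 ± 0.04 (log2, SE; limma adjusted p = 0.753 and 0.900).

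With the replicate number as a block no member passed either (limma; adjusted p 0.411 for Cdkn2c to 0.960 for Cdk6), against 1.89% of all genes. Ccnd3, Cdk4 and Cdkn1b, 3 of the 9, were lower in all 4 pairs, as were 11.5% of all genes, and 1 (Ccnd2) was higher in all 4, as were 13.0% of all genes. Without control 2 and jasplakinolide 4 the log2 differences of Ccnd2, Ccnd3 and Cdk4 were 0.03 ± 0.05, -0.09 ± 0.05 and -0.06 ± 0.04 (SE), close to those from all arrays.

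**Figure D3:**
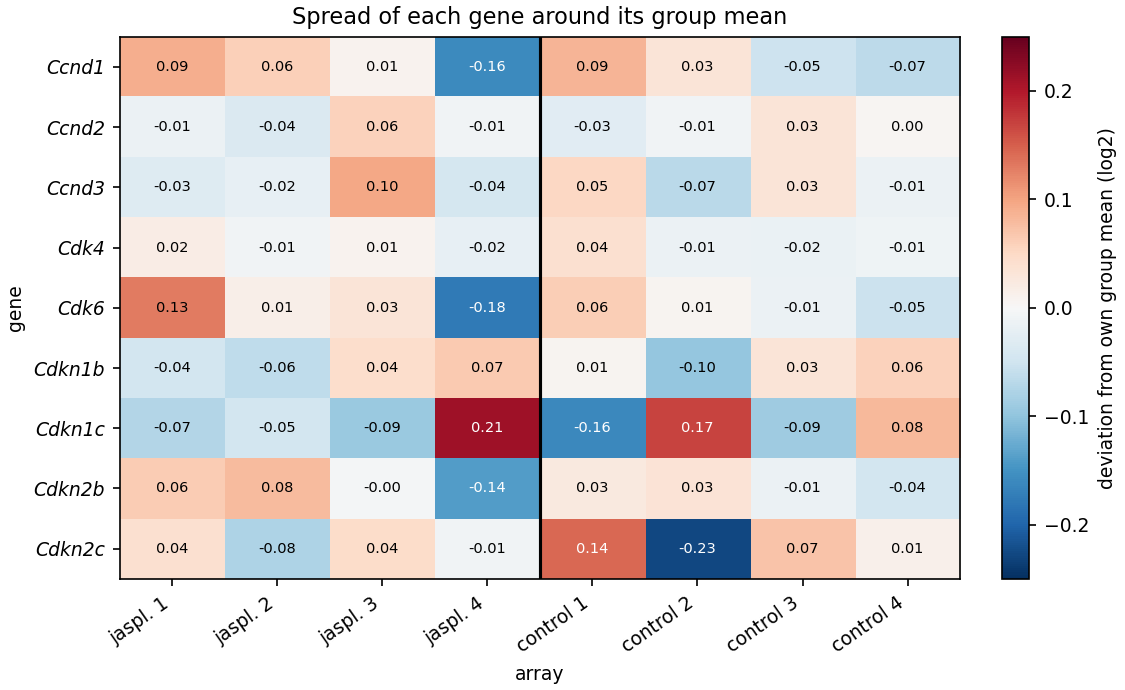
Deviation (log2) of each array from its own group's mean for the 9 genes, jasplakinolide arrays left of the line and control arrays right of it, in red above and blue below the mean. Jasplakinolide 4 is low for Ccnd1 (-0.16), Cdk6 (-0.18) and Cdkn2b (-0.14) and high for Cdkn1c (0.21), and control 2 is low for Cdkn2c (-0.23).

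The members with the highest and the lowest moderated t were Cdkn1c and Ccnd3. The genes whose pattern over the 8 arrays was most like that of Cdkn1c were Mir615 (Pearson r = 0.994), Gm10100 (0.990) and Fam83e (0.990). For Ccnd3 they were Angptl1 (0.975), Ppid (0.975) and Nsun4 (0.974). These are the extremes of 19938 genes over arrays that share their normalization, and none of these 6 genes passed the test (limma adjusted p 0.587 to 0.934).

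The steps next to the members were read from gene lists. Of 11 genes of cyclin E, cyclin A, CDK2 and their activators, none passed (limma; 2 at an unadjusted p under 0.05). Over all 19938 genes 1769 had an unadjusted p under 0.05 (limma), the background for this count in each list below. Their median log2 difference was -0.07, and 10 of them lay below 0, as did 43.6% of all genes. Ccna2, the S and G2 phase cyclin A2, read 11.65, 11.63, 11.73 and 11.77 log2 with jasplakinolide against 11.92, 11.85, 11.94 and 11.94 log2 in control. Its groups did not overlap, lower with jasplakinolide, as in 3.29% of all genes. Its log2 difference of -0.22 ± 0.05 (SE) missed the threshold (limma adjusted p = 0.0986). It passed with the replicate block (limma adjusted p = 0.0499), among the brighter 50% of genes (0.0310), with a trended, robust prior (0.0104) and with array weights (0.0123). It missed among the brighter 75% (limma adjusted p = 0.0627), after median centring (0.1705), a second quantile normalization (0.0591) or cyclic loess (0.0543). Whichever array was omitted, it missed too (limma adjusted p 0.0935 to 0.313). Cks2, a CDK-binding subunit, differed by -0.13 ± 0.05. Ccne1 (cyclin E1) and Cdk2, named after their values were seen, differed by -0.10 ± 0.06 and -0.07 ± 0.06 (log2, SE).

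Of 17 genes of the pocket proteins, E2F factors and the DREAM complex none passed (limma; 4 at an unadjusted p under 0.05; median -0.08). The largest differences were those of E2f8, a repressive E2F, at -0.25 ± 0.09, and Rb1, the retinoblastoma protein itself, at -0.19 ± 0.06 (log2, SE; limma adjusted p = 0.404 and 0.314). Of 15 genes for the turnover of D-type cyclins and CIP/KIP inhibitors none passed (limma; 2 at an unadjusted p under 0.05; median -0.01). Among them, Usp2, a deubiquitinase of cyclin D1, differed by -0.19 ± 0.05 and Dtl, the adaptor of a ubiquitin ligase for p21, by -0.14 ± 0.06 (log2, SE). Of 26 upstream transcription factors and regulators none passed (limma; 4 at an unadjusted p under 0.05; median -0.02), with Egr1 at 0.35 ± 0.12 and Mycn at -0.21 ± 0.11 (log2, SE). The difference of Mycn was -0.08 without jasplakinolide 4, where it was lowest. Tead1, a DNA-binding partner of the co-activator YAP, was named after its value was seen, at 0.18 ± 0.04 (log2, SE; limma adjusted p = 0.116). It passed as higher among the brighter 50% of genes, after a second quantile normalization or cyclic loess, with the trended, robust prior, and with array weights, where Egr1 passed too (adjusted p = 0.0423). With the replicate block it did not pass (limma adjusted p = 0.0808). Nor did any gene of this list pass among the brighter 75% of genes, after median centring or whichever array was omitted.

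Downstream, the differences were larger. Of 24 G1/S genes, most of them known E2F targets, 1 fell, none rose and 23 did not pass, with a median log2 difference of -0.15 and all 24 below 0. Rrm2, a ribonucleotide reductase subunit, was the one that fell, by 0.27 ± 0.05 on the log2 scale (SE; limma adjusted p = 0.0467), and it missed the threshold after median centring and whichever of the 8 arrays was omitted. The count of 1 became 4 after a second quantile normalization or cyclic loess, 3 among the brighter 50% of genes or with the trended, robust prior, and 2 with array weights. Of 13 G2/M genes 5 fell, none rose and 8 did not pass, with a median of -0.26 and all 13 below 0. With the replicate block 8 fell. Cdc20, which activates the anaphase-promoting complex, read 9.94, 9.86, 9.98 and 9.95 log2 with jasplakinolide against 10.34, 10.23, 10.38 and 10.33 log2 in control, a log2 difference of -0.39 ± 0.05 (SE; limma adjusted p = 0.00989). Ccnb2 (cyclin B2) differed by -0.31 ± 0.05, Aurkb (Aurora kinase B) by -0.30 ± 0.05 and Plk1 (Polo-like kinase 1) by -0.30 ± 0.05 (log2, SE). The count of 5 became 0 without control 4, 1 without control 1, control 3, jasplakinolide 1, jasplakinolide 2 or jasplakinolide 3, 2 without jasplakinolide 4 or after median centring, and 7 without control 2. It was 10 after a second quantile normalization, cyclic loess or an intensity trend with a robust prior, 9 with array weights or among the brighter 50% of genes, and 1 at an adjusted p under 0.01. The list's median stayed between -0.306 and -0.245 in all these fits.

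**Figure D4:**
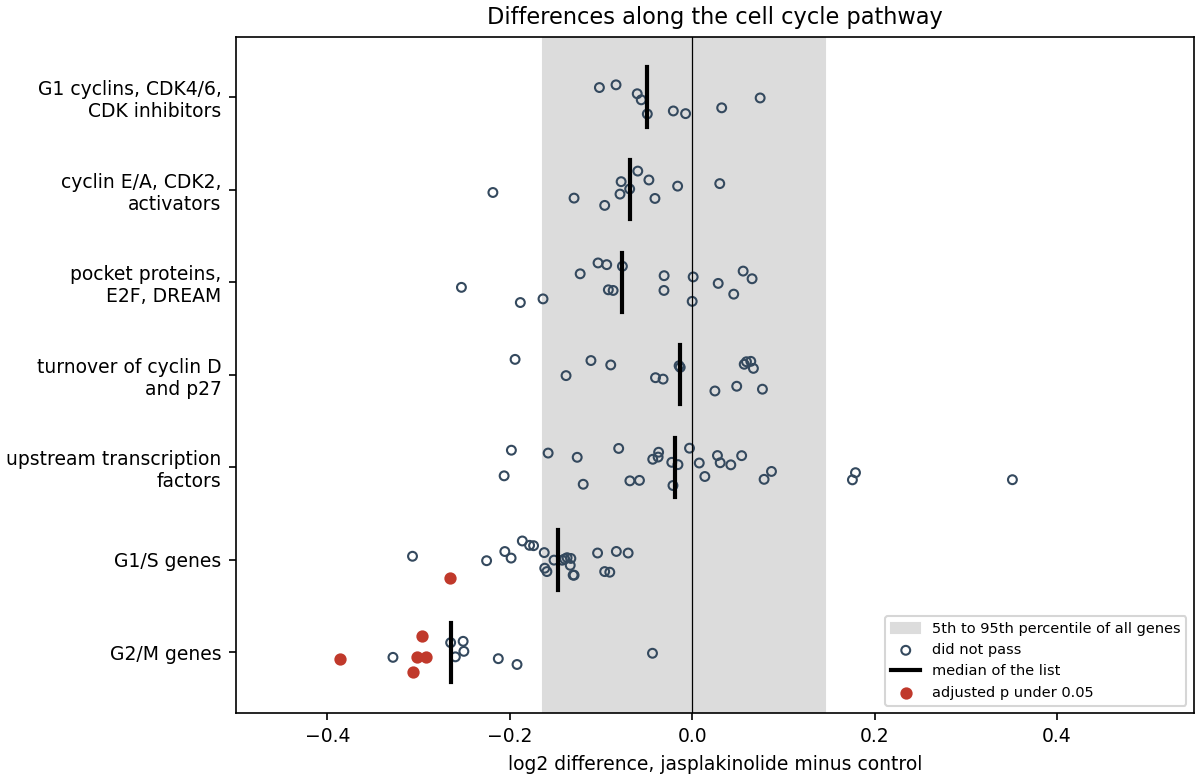
Log2 difference (jasplakinolide minus control) of each measured gene in 7 lists, with a black bar for each list's median, filled red points for adjusted p under 0.05 and a grey band for the 5th to 95th percentile of all genes (-0.16 to 0.15). All 9 points of the top row, the G1 cyclins, kinases and inhibitors, lie in the band, and the medians of the G1/S and G2/M genes are -0.15 and -0.26.

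Whether each member's change differed from that of the G2/M genes was tested on its level relative to the mean of the 13 G2/M genes on the same array, with an exact two-sided permutation test over the 70 splits of the arrays. The falls of those genes were known when this test was chosen. Relative to them all 9 members were higher with jasplakinolide, by 0.16 (Cdkn2c) to 0.33 (Cdkn1c) on the log2 scale. This common direction follows from the known fall of the reference, which all 9 comparisons share. The 9 p-values below are therefore not independent, and no change of the members themselves is read from them. For Ccnd2, Ccnd3, Cdk4, Cdkn1b and Cdkn2c the relative levels of the groups did not overlap (exact permutation p = 0.0286, the smallest the design allows; 0.0514 adjusted over the 9). For Ccnd1, Cdk6, Cdkn1c and Cdkn2b the exact permutation p was 0.0571 (0.0571 adjusted). With this smallest p an adjusted value could pass only if most of the 9 reached it, and the splits do not use the replicate numbers, so nothing is read from the adjusted values missing the threshold.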

How the data were processed

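RNA of 8 samples was measured on 1 array each, 4 labelled jasplakinolide and 4 control. For 35556 probe sets the authors deposited log2 levels (2.29 to 14.2). The submitters' processing notes name RMA and Affymetrix Expression Console. RMA corrects background, equalises the arrays' distributions by quantiles and summarises probes, so a shift common to all genes cannot be read from these levels. The array medians still ran from 7.302 log2 (control 3) to 7.394 log2 (jasplakinolide 4). No program version is given there. Of the probe sets, 21789 had 1 gene symbol in the platform annotation, 1621 several and 12146 none, and only the first were used. Of them 21698 matched RefSeq gene identifiers, with 0 symbols changed. For the 999 genes with more than 1 probe set, that of highest mean was kept. No filter on dim signal was applied, and the number of arrays limits the precision.

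The test was limma 3.58.1 (R 4.3.3; lmFit, eBayes, two-sided, Benjamini-Hochberg over 19938 genes; 6 residual and 3.43 prior degrees of freedom). Figures used matplotlib 3.10.9 in Python 3.11.15. The members and gene lists were chosen with earlier results of these data known. All members are named. From each pathway list the text names up to 4 genes past the threshold, by size, or else the 2 largest differences. The members of highest and lowest t have their 3 most correlated genes named. Alternatives were the replicate number as a block, keeping the brighter 75% or 50% of genes, 3 further scalings, an intensity trend with robust prior, array weights, other handling of probe sets, an adjusted p under 0.01 and leaving out arrays. Each array was set against its group mean, and over all genes the deviations of arrays sharing a number had correlations of 0.241 to 0.563 in the 4 pairs. Arrays of different numbers reached 0.521, and for 6 of the 8 the highest correlation was with the array sharing their number. As each pair was above 0.1, the numbers were taken, from the data and not the labels, to pair the samples. The main test did not use this pairing, which enters only the block fit and the differences given by pair. Listed genes without a value were not analysed here.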

Additional observations from a re-analysis of the deposited data

Results flagged for a closer look

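In 3 of 18 groups of 4 arrays, 1 per gene and treatment, an array lay further from its neighbours than Dixon's 95% limit allows, where chance gives about 1 in 20. Ccnd3 on jasplakinolide 3 was at 11.11 log2, above the other treated arrays, and without that array the log2 difference was -0.12 ± 0.05 (SE; limma adjusted p = 0.537). Cdk4 on control 1 was at 12.87 log2, above the other controls, and without it the log2 difference was -0.05 ± 0.04 (SE; limma adjusted p = 0.964). Cdkn1c on jasplakinolide 4 was at 7.85 log2, above the other treated arrays, and without it the log2 difference was 0.0039 ± 0.08 (SE; limma adjusted p = 0.998).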

How the results depend on the processing

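None of the 9 members passed under any of the 20 alternatives (lowest limma adjusted p = 0.228), Cdkn1c being absent among the brighter 50% of genes. Of 179 such differences 169 kept their sign. Many of these could not turn, as several alternatives leave the estimate itself unchanged. They are the block, the brightness filters, the trended, robust prior, each probe set on its own and the stricter threshold. Signs turned for Ccnd1, Cdk6 and Cdkn2b with array weights (0.022, 0.056 and 0.039 log2), without jasplakinolide 4 (0.0040, 0.052 and 0.026) and without control 2 and jasplakinolide 4 together, chosen after seeing the data (0.015, 0.054 and 0.037). For Cdk6 the sign also turned without control 1 (0.014). With 1 array left out, Ccnd1 ran from -0.079 to 0.0040, Cdk6 from -0.050 to 0.052 and Cdkn2b from -0.047 to 0.026 log2. The cause was not tested.

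Over all genes 154 passed, 87 higher and 67 lower. The count was 377 with the replicate block (162 higher, 215 lower), 296 among the brighter 50% of genes (with fewer genes tested), 296 after a second quantile normalization (129 higher, 167 lower), 297 after cyclic loess (129 and 168), 457 with array weights, 358 with a trended, robust prior and 45 at an adjusted p under 0.01. After median centring it was 103 (69 higher, 34 lower). With 1 array fewer it ran from 43 to 150, with 43, 55, 78 and 150 when control 4, 3, 1 or 2 was left out and 52, 55, 59 and 71 when jasplakinolide 2, 1, 3 or 4 was. Among the members and the listed genes, the block changed no other call than those given above.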
